A study of Rattus norvegicus with 12 samples.

Results

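Dahl salt-sensitive (S) and Dahl salt-resistant (R) rats are a pair of inbred strains bred apart by their blood pressure response to dietary salt. Here the circular RNAs (circRNAs) of their kidneys were compared, from 3 S and 3 R rats, which are 6 of the 12 arrays of a study that also measured 3 spontaneously hypertensive (SHR) and 3 Wistar Kyoto (WKY) rats. Arrays were assigned to strains by their titles, and 1 kidney sample of 1 male rat was hybridised to each array. Every rat of all 4 strains was weaned between days 28 and 30, received chow with 0.3% NaCl and was killed at 57 days of age. No group was given a high-salt diet, so S and R differed in strain and not in the salt content of their chow. Of 14145 circRNA probes, 12168 could be compared between S and R, because they were well above background on all 3 S arrays or on all 3 R arrays and had enough unflagged spots. Another 1976 were too dim and 1 had missing spots.

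CircRNAs form when the end of an exon is spliced back to the start of the same or an earlier exon of the transcript, which leaves a ring without free ends. Rings resist exonucleases such as RNase R, which digests linear RNA, and so they can be enriched from total RNA before labelling. Some are known to bind microRNAs or proteins, but most have no known function. The S rat becomes hypertensive and develops kidney injury on a salt-rich diet, whereas the R rat stays close to normal pressure. SHR rats become hypertensive with age without added salt, and WKY rats are their usual normotensive comparison. The circRNAs are named by their probe, since the tables used here do not pair probes with a host gene, a position or a sequence.

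Levels are log2 signal intensities minus the 75th percentile of the circRNA probes of the same array, so 0 lies at that percentile and most levels are negative. The S arrays were less alike than the R arrays. Of all circRNA probes, the percentage counted as well above background was 70.3%, 90.1% and 83.9% in S rats 1, 2 and 3 and between 87.5% and 91.1% in R (81.4% ± 10.1 against 88.7% ± 2.03, SD, n = 3 rats each; exact two-sided permutation test, p = 0.3, where the smallest possible p is 0.1). The 75th percentile itself was 6.22, 8.15 and 7.23 (log2 intensity) in S rats 1, 2 and 3 and between 7.91 and 8.0 in R. S rat 2 stood apart from its own strain, and whether its array holds what its label says was not tested, which touches every S mean. Its levels correlated at r = 0.848 and 0.903 with S rats 1 and 3, but at 0.982, 0.973 and 0.955 with R rats 1, 2 and 3 (Pearson over the 12168 circRNAs, which are not independent of each other), and it lay nearer to the R mean than to the mean of S rats 1 and 3 for 9861 circRNAs (81.0%). All 6 arrays were on 1 slide. Its first row held S rats 1 to 3 and R rat 1, and its second row R rats 2 and 3 with WKY rats 1 and 2. Only 1 of 24 listed kidney marker genes had a usable probe: Cyp2e1, a cytochrome P450 of the proximal tubule, was above background on every array, at -1.38 ± 0.11 in S and -0.98 ± 0.30 in R (SD, n = 3 each; limma adjusted p = 0.928). The RNA had been digested with RNase R, so this probe reads linear RNA left after digestion. It cannot be read as the level of Cyp2e1 mRNA in the kidney. In whole kidney RNA, fewer cells of a type and less RNA per cell cannot be told apart.

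The difference between the strains was tested for each circRNA with limma, in a fit of all 12 arrays with Benjamini-Hochberg adjustment over the 12168 circRNAs. At an adjusted p under 0.05, 13 circRNAs differed (0.107% of those tested), of which 7 were higher in S (0.0575%) and 6 lower (0.0493%). At an unadjusted p under 0.05 the numbers were 1788 in all (14.7%), with 895 higher (7.36%) and 893 lower (7.34%). The median difference over all 12168 circRNAs was 0.03 log2 units. Which rats entered the fit changed the count. Without S rat 2, 3593 circRNAs passed, 1779 higher and 1814 lower, and without R rat 3, 61 passed, 53 higher and 8 lower. Without S rat 3 the count was 6 and without R rat 2 it was 5. All 13 remained among the 3593, with differences from 1.61 to 3.39 for those higher in S and from -3.34 to -2.59 for those lower. Their selection on all 3 S rats favours circRNAs for which S rat 2 lay with S. With slide row as a blocking term, no circRNA passed. Of the 12168 circRNAs, 546 then had an unadjusted limma p under 0.05, against 1788 without that term. All S rats lay in the first row, so R rat 1 is the only R rat that shares a row with S, and a fit within that row has 1 rat in R. The differences of the 13 within that row are given after them.

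**Figure D1:**
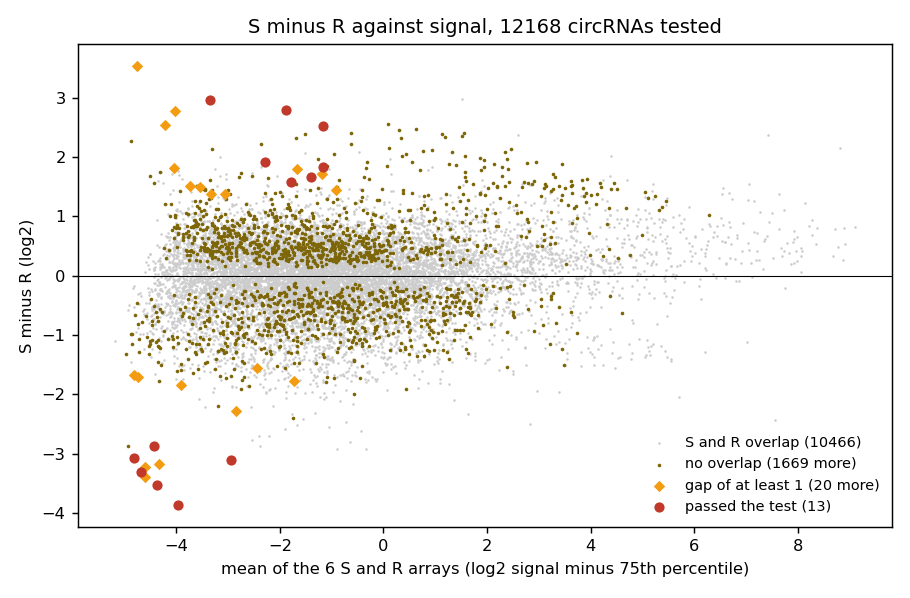
Each point is a circRNA, placed by its mean level over the 6 S and R arrays (log2 intensity minus the array's 75th percentile, horizontal axis) and by its S minus R difference (log2, vertical axis), with the circRNAs that passed marked. The 7 that were higher in S lie at low to middle levels, and 5 of the 6 that were lower in S lie at the dim end.

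**Figure D2:**
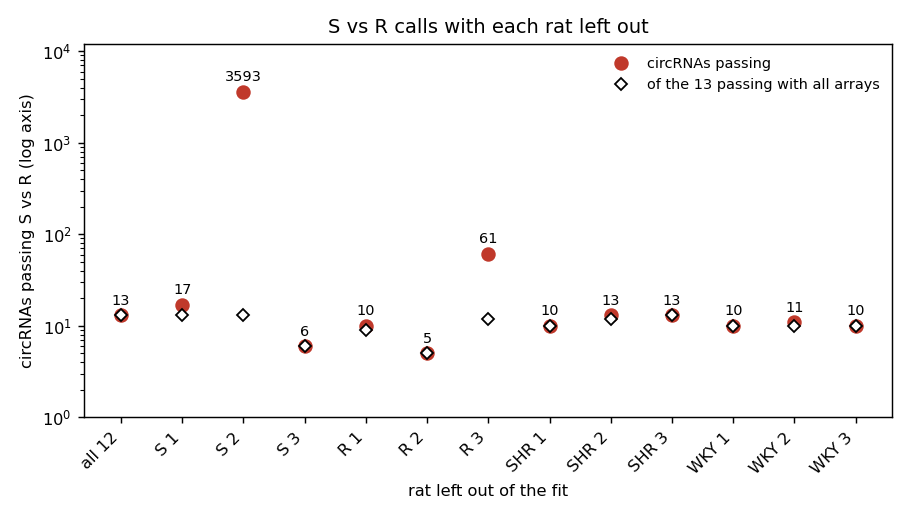
Red points give the number of circRNAs with a limma adjusted p under 0.05 for S against R (vertical log axis) when each rat in turn is left out (horizontal axis), and open diamonds how many of the original 13 are among them. The count is 3593 without S rat 2, 61 without R rat 3 and between 5 and 17 without any other rat, against 13 with all rats.

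The 7 circRNAs higher in S are described first, and in all of them every S rat lay above every R rat. ASCRPR007857 was close to or below the detection limit in R. Its level was -1.25, -2.71 and -1.65 in S rats 1 to 3 and -5.23, -4.95 and -4.33 in R rats 1 to 3, where only R rat 3 was well above background. The means were -1.87 ± 0.75 and -4.84 ± 0.46 (SD, n = 3). The fitted difference was 2.97 ± 0.39 (SE; limma adjusted p = 0.0112), but its size cannot be read with 1 of 3 R arrays well above background. With the other R arrays set at their detection limit where that was higher than their level, it was at least 7.44-fold higher in S. ASCRPR008635 had levels of -0.84, -0.21 and -0.38 in S and of -3.13, -3.38 and -3.33 in R. The R rats lay close together, and the dimmest S rat was still 2.29 log2 units above the brightest R rat. The difference was 2.80 ± 0.31 (SE), 6.98-fold, with a limma adjusted p of 0.00305.

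ASCRPR005699 had the lowest adjusted p of the comparison. It was 0.23, 0.00 and 0.02 in S and -2.39, -2.47 and -2.46 in R, with little spread in either strain. Its difference of 2.53 ± 0.22 (SE), 5.77-fold, had a limma adjusted p of 0.000957. ASCRPR002759 was -1.28, -1.32 and -1.36 in S and -3.22, -3.33 and -3.20 in R. The SD was 0.04 in S and 0.07 in R, far smaller than the difference of 1.93 ± 0.21 (SE), which was 3.80-fold (limma adjusted p = 0.00304). ASCRPR003927 was -0.07, -0.43 and -0.25 in S and -2.24, -2.07 and -1.95 in R. It was 3.58-fold higher in S, a difference of 1.84 ± 0.22 (SE; limma adjusted p = 0.00517).

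ASCRPR012875 was -0.95, -1.24 and -0.81 in S and -2.77, -2.58 and -2.40 in R. S rat 2 was the lowest of the S rats and still lay 1.16 above the highest R rat. The difference was 1.58 ± 0.22 (SE), 3.00-fold (limma adjusted p = 0.0158). ASCRPR005843 was -0.96, -0.46 and -0.29 in S and -2.15, -2.23 and -2.32 in R, a difference of 1.66 ± 0.27 (SE) or 3.17-fold. It was the circRNA closest to the threshold on the passing side, with a limma adjusted p of 0.0477. Leaving out 1 rat ended its call in 9 of 12 cases, namely any rat but S rats 1 and 2 and SHR rat 3, with adjusted p from 0.0568 to 0.214. The calls of ASCRPR007857 and ASCRPR012875 ended without S rat 3, R rat 1 or R rat 2 (adjusted p from 0.0650 to 0.0904 and from 0.108 to 0.121), and that of ASCRPR003927 without R rat 2 (0.0541). ASCRPR005699, ASCRPR008635 and ASCRPR002759 passed with any single rat left out. With normexp background correction the 7 differences shrank to between 0.97 and 1.60, and only ASCRPR005699, ASCRPR008635 and ASCRPR003927 passed.

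**Figure D3:**
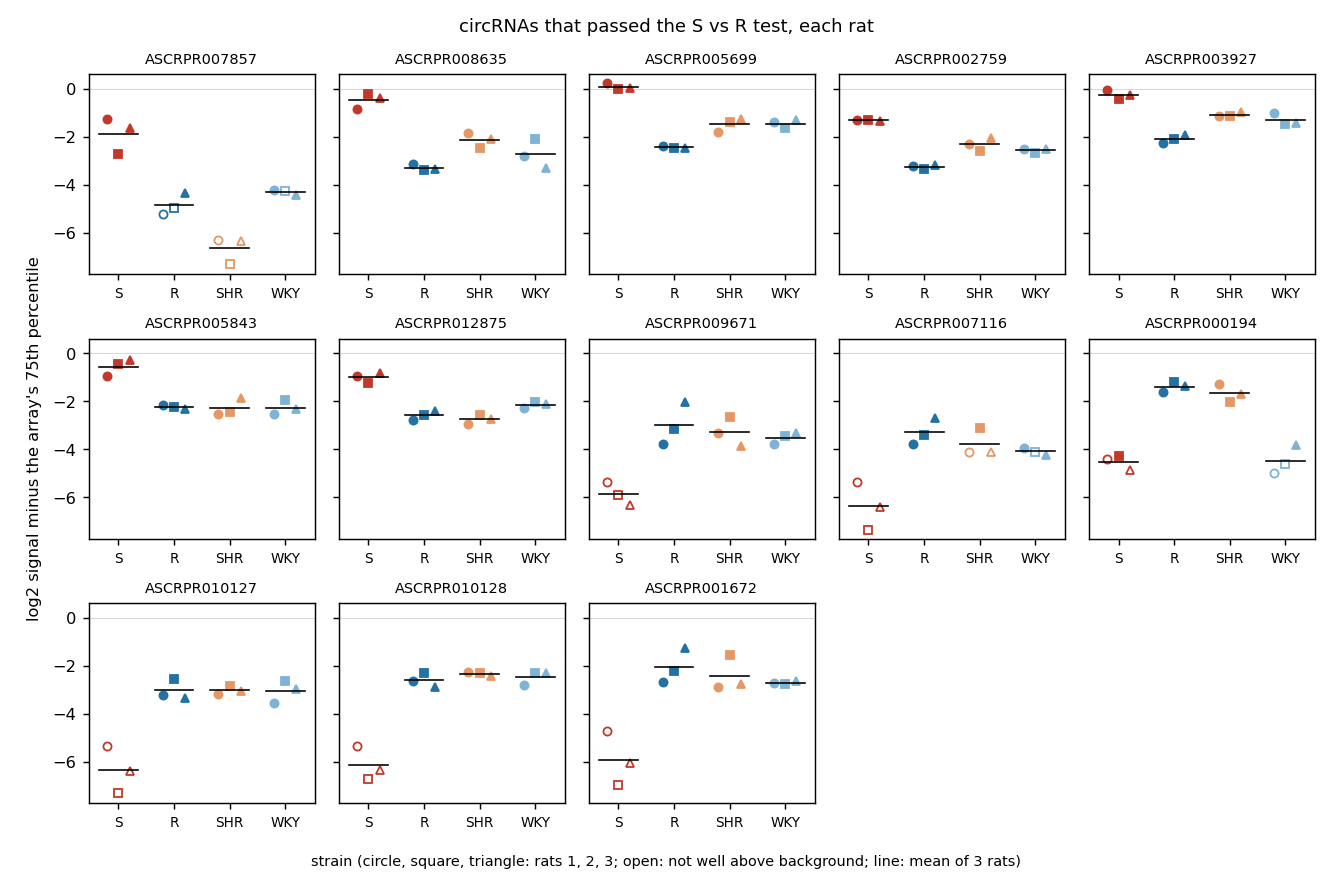
Each panel is 1 circRNA that passed, and each point is 1 rat at its level (log2 intensity minus the array's 75th percentile), grouped by strain, with a line at each strain mean and open points where the spot was not well above background. S and R do not overlap in any of the 13 panels, and the S points of 5 of the 6 circRNAs that were lower in S are all open.

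The other 6 circRNAs were lower in S, and for 5 of them no S array gave a spot well above background. These 5 were tested because they were detected in R, the strain where they are high, and their adjusted p compares R with S readings at the floor. Requiring detection on all 6 S and R arrays left 5 circRNAs that passed, all of them higher in S and none lower. For these 5 the fold is a lower bound, which sets the R mean against the dimmest signal that counted as well above background on each S array. ASCRPR010128 had a scanner intensity of 41.5, 48.8 and 33.4 in R rats 1 to 3 and of 1.85, 2.69 and 1.84 in S rats 1 to 3. Its R levels were -2.62, -2.30 and -2.88. All 3 lie above the lowest level that counted as well above background on each S array. It was at least 2.79-fold lower in S (limma adjusted p = 0.00129). ASCRPR001672 was at -2.67, -2.23 and -1.24 in R, also above the limits of all 3 S arrays. Its S intensities were 2.81, 2.29 and 2.26, against 40.2, 51.1 and 105 in R. It was at least 4.10-fold lower in S (limma adjusted p = 0.0158), the largest bound of these 5.

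The other 3 of these circRNAs had a lowest R value above the limits of S rats 2 and 3 only, because S rat 1, the dimmest array, could not show levels below -3.09. ASCRPR010127 was -3.21, -2.54 and -3.33 in R and at least 2.08-fold lower in S (limma adjusted p = 0.0112). ASCRPR009671 was -3.78, -3.16 and -2.03 in R and at least 2.13-fold lower (0.0317), and ASCRPR007116 was -3.78, -3.40 and -2.69 in R and at least 1.73-fold lower (0.0273). R rat 3 was the highest R rat for ASCRPR009671, ASCRPR007116 and ASCRPR001672.

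ASCRPR000194 was the member of the group with some signal in S. Its levels were -4.39, -4.27 and -4.86 in S, where only S rat 2 was well above background, and -1.63, -1.19 and -1.35 in R. The gap between the nearest S and R rats was 2.65, measured against S rat 2. The fitted difference was -3.11 ± 0.32 (SE; limma adjusted p = 0.0022). With S rats 1 and 3 set at their detection limits, it was at least 5.38-fold lower in S. ASCRPR000194 and ASCRPR010128 passed with any single rat left out. The calls of ASCRPR001672 and ASCRPR010127 ended without S rat 3 or R rat 2 (adjusted p from 0.0815 to 0.121). Those of ASCRPR007116 and ASCRPR009671 ended in 7 and 6 of 12 cases, in both without S rat 3, R rat 2, SHR rat 1 or any WKY rat, and for ASCRPR007116 also without R rat 1 (adjusted p from 0.0526 to 0.203). With normexp, which adds an offset to every spot, the 6 differences shrank to between -0.73 and -0.08 and none passed. The split of calls under normexp was 3 higher and 0 lower, and with the deposited values it was 11 higher and 3 lower.

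**Figure D4:**
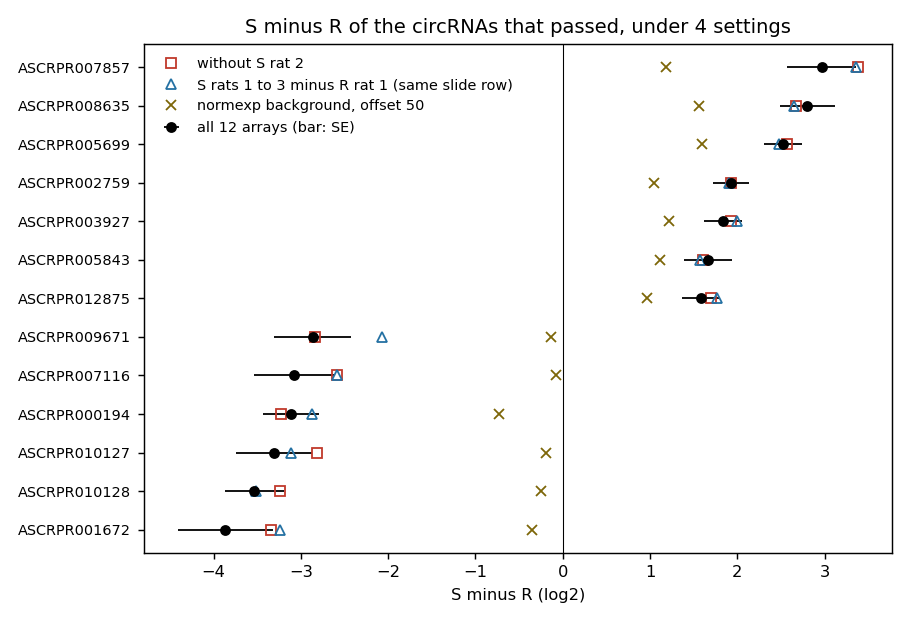
For each of the 13 circRNAs the S minus R difference (log2) is shown with all 12 arrays (black, bar for the SE), without S rat 2, as the S mean minus R rat 1 within the first row of the slide, and after normexp background correction. The differences keep their direction in all 4 settings, and those of the 6 lower circRNAs shrink to between -0.73 (ASCRPR000194) and -0.08 after normexp.

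Within the first row of the slide, where S rats 1 to 3 can be set against R rat 1, the differences of the 7 higher circRNAs ranged from 1.58 to 3.36 and those of the 6 lower ones from -3.51 to -2.07. None passed in a fit of those arrays alone (limma adjusted p = 0.872 for each), in which R has 1 rat.

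SHR and WKY show on which side of the Dahl pair the other strains lay. SHR rat 2 stood apart from its own strain, much as S rat 2 did. Its levels correlated at r = 0.904 and 0.914 with SHR rats 1 and 3, but at 0.977, 0.975 and 0.961 with R rats 1, 2 and 3 (Pearson over the 12168 circRNAs). Whether its array holds what its label says was not tested, which touches every SHR mean. For 11 of the 13 circRNAs both strain means were nearer to R than to S. The same held for 62.7% of all tested circRNAs with a higher S mean and 63.5% of those with a lower one, and the 13 are too few to set against these shares. ASCRPR005843 was -2.28 ± 0.37 in SHR and -2.27 ± 0.29 in WKY (SD, n = 3 each), next to R at -2.23 ± 0.09. ASCRPR012875 was -2.75 ± 0.19 in SHR and -2.13 ± 0.14 in WKY, on both sides of R. ASCRPR002759 was -2.32 in SHR and -2.56 in WKY, and ASCRPR008635 was -2.14 and -2.73, between S and R in each case. ASCRPR005699 was -1.49 ± 0.29 in SHR and -1.45 ± 0.16 in WKY, also between S and R. ASCRPR003927 was an exception, at -1.07 in SHR, slightly nearer to S, and at -1.30 in WKY, nearer to R.

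Among the circRNAs lower in S, ASCRPR010128 was -2.33 ± 0.10 in SHR and -2.47 ± 0.28 in WKY and ASCRPR010127 was -3.01 ± 0.17 and -3.05 ± 0.47, and both strain means lay within 1 SD of the R mean. ASCRPR001672 was -2.41 and -2.70, ASCRPR009671 -3.29 and -3.51, and ASCRPR007116 -3.78 and -4.09 in SHR and WKY. ASCRPR000194 was the other exception. SHR rats were at -1.29, -2.03 and -1.67, like R, and WKY rats at -4.98, -4.62 and -3.83, like S. ASCRPR007857 also differed between SHR and WKY: it was -4.20, -4.24 and -4.41 in WKY and -6.32, -7.28 and -6.34 in SHR, where no array was well above background.

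S was set against the mean of SHR and WKY in the same fit, in which 4766 circRNAs passed (39.2%), 2456 above 0 (20.2%) and 2310 below (19.0%). All 13 were among them, each in the direction of its S minus R difference. R against that mean gave 175 circRNAs (1.44%), 125 above 0 (1.03%) and 50 below (0.411%), and 3 of the 13 were among them. These comparisons share the S or R arrays with S against R and are not independent of it. ASCRPR000194 was higher in R than in the mean of SHR and WKY by 1.68 (limma adjusted p = 0.0179), ASCRPR005699 lower with a difference of -0.97 (0.0362) and ASCRPR003927 lower with a difference of -0.90 (0.0441). With the slide as a block, 69 circRNAs passed for S and 0 for R against that mean, so slide and strain are only partly separable here. Each of these 3 R results was lost in 4 or more of the 12 fits that left out 1 rat, R rats 1, 2 and 3 included for all 3, with adjusted p from 0.0524 to 0.205. When the S minus R difference was tested against that of SHR minus WKY, 11 circRNAs passed (0.0904%), 8 above 0 (0.0657%) and 3 below (0.0247%), and 5 of the 13 were among them: ASCRPR007857, ASCRPR005699 and ASCRPR012875 above 0, and ASCRPR000194 and ASCRPR010128 below. That test contains the S minus R difference by which the 13 were chosen. The choice favours their passing, so nothing is read from the 5 of 13.

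Beside the 13, another 20 circRNAs had S and R values at least 1 log2 unit apart but did not pass. In all, 33 circRNAs had such a gap (0.271%), 18 higher in S (0.148%) and 15 lower (0.123%). Of the 20, 11 were higher in S, with adjusted p from 0.0529 to 0.346, and 9 lower, from 0.0529 to 0.332. ASCRPR011983 lay just beyond the threshold, at 0.37, -0.75 and -0.62 in S and -1.91, -2.29 and -1.97 in R (difference 1.72, limma adjusted p = 0.0529). SHR lay between -2.74 and -2.38 and WKY between -2.56 and -2.34, both below R.

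ASCRPR005221 was 0.25, -0.48 and -0.35 in S and -1.50, -1.81 and -1.59 in R (limma adjusted p = 0.0918). ASCRPR010311 was 0.15, -1.26 and -1.19 in S and -2.59, -2.42 and -2.68 in R (0.17). In both, S rat 1 was the highest rat and R rats lay close together. ASCRPR007453 was -2.95, -3.23 and -2.75 in S against -4.66, -4.40 and -4.44 in R (0.0838). ASCRPR011659 was -2.84, -2.80 and -2.76 in S against -4.16, -4.62 and -4.13 in R (0.126), and ASCRPR006763 was -2.64, -2.75 and -2.53 against -3.92, -4.26 and -3.89 (0.262). The SD of the S rats was at most 0.24 in these 3, and that of SHR or WKY was larger in each.

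ASCRPR002247 was -2.77, -3.32 and -3.32 in S and -4.76, -5.41 and -4.70 in R (limma adjusted p = 0.104), and ASCRPR004809 was -2.28, -2.25 and -2.61 in S and -3.70, -3.91 and -3.68 in R (0.346). These 2 were the ones of the 11 for which SHR and WKY both lay nearer to S. For ASCRPR004809, SHR rats ranged from -3.26 to 0.14, which is wider than the S and R values together. ASCRPR001538 was -1.38, -3.42 and -3.11 in S and -4.73, -6.64 and -4.86 in R (0.126), with only R rat 1 well above background in R.

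ASCRPR010180 and ASCRPR001948 were well above background on all S arrays and on no R array. ASCRPR010180 was -2.71, -2.76 and -3.36 in S and at least 3.83-fold higher there (limma adjusted p = 0.0756). ASCRPR001948 was -1.54, -4.57 and -2.87 in S and at least 3.70-fold higher (0.0838). S rat 2 was the lowest S rat for ASCRPR001948, and no SHR or WKY array was well above background.

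Of the 9 that were lower in S, 5 were well above background on no S array. ASCRPR004555 was -3.32, -2.92 and -1.99 in R and at least 2.53-fold lower in S, ASCRPR001958 was -3.50, -3.24 and -1.98 and at least 2.26-fold lower, and ASCRPR000611 was -3.92, -3.14 and -1.93 and at least 2.12-fold lower. All 3 had a limma adjusted p of 0.0529, and R rat 3 was the highest rat in each. ASCRPR000175 was -3.73, -3.99 and -3.92 in R and at least 1.15-fold lower in S (0.332), and ASCRPR006447 was -4.0, -4.24 and -3.73 in R and at least 1.07-fold lower (0.112). With normexp the direction of both turned, to 0.21 and 0.29. Bounds this near 1 do not establish a difference, since some spots brighter than a limit were not counted as well above background. No SHR or WKY array was well above background for ASCRPR000175, so among the 4 strains only R carried that flag. Its level was not particular to R, since SHR rat 3 was at -3.90, within the R values. S rat 1 could not show levels below -3.09.

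The other 4 had some S signal. ASCRPR004684, the brightest, was -2.63, -2.21 and -3.03 in S and -0.61, -1.15 and -0.79 in R (limma adjusted p = 0.296). ASCRPR010133 was -3.56, -3.05 and -3.05 in S against -1.70, -1.52 and -1.75 in R (0.303), and ASCRPR005454 was -5.35, -3.37 and -3.23 against -1.93, -1.30 and -1.90 (0.175). For ASCRPR008537 the values were -5.30, -4.28 and -4.90 against -2.99, -2.78 and -3.19 (0.104). S rat 1 was not well above background for the last 3, nor was S rat 3 for ASCRPR008537, which turned to 0.13 with normexp.

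**Figure D5:**
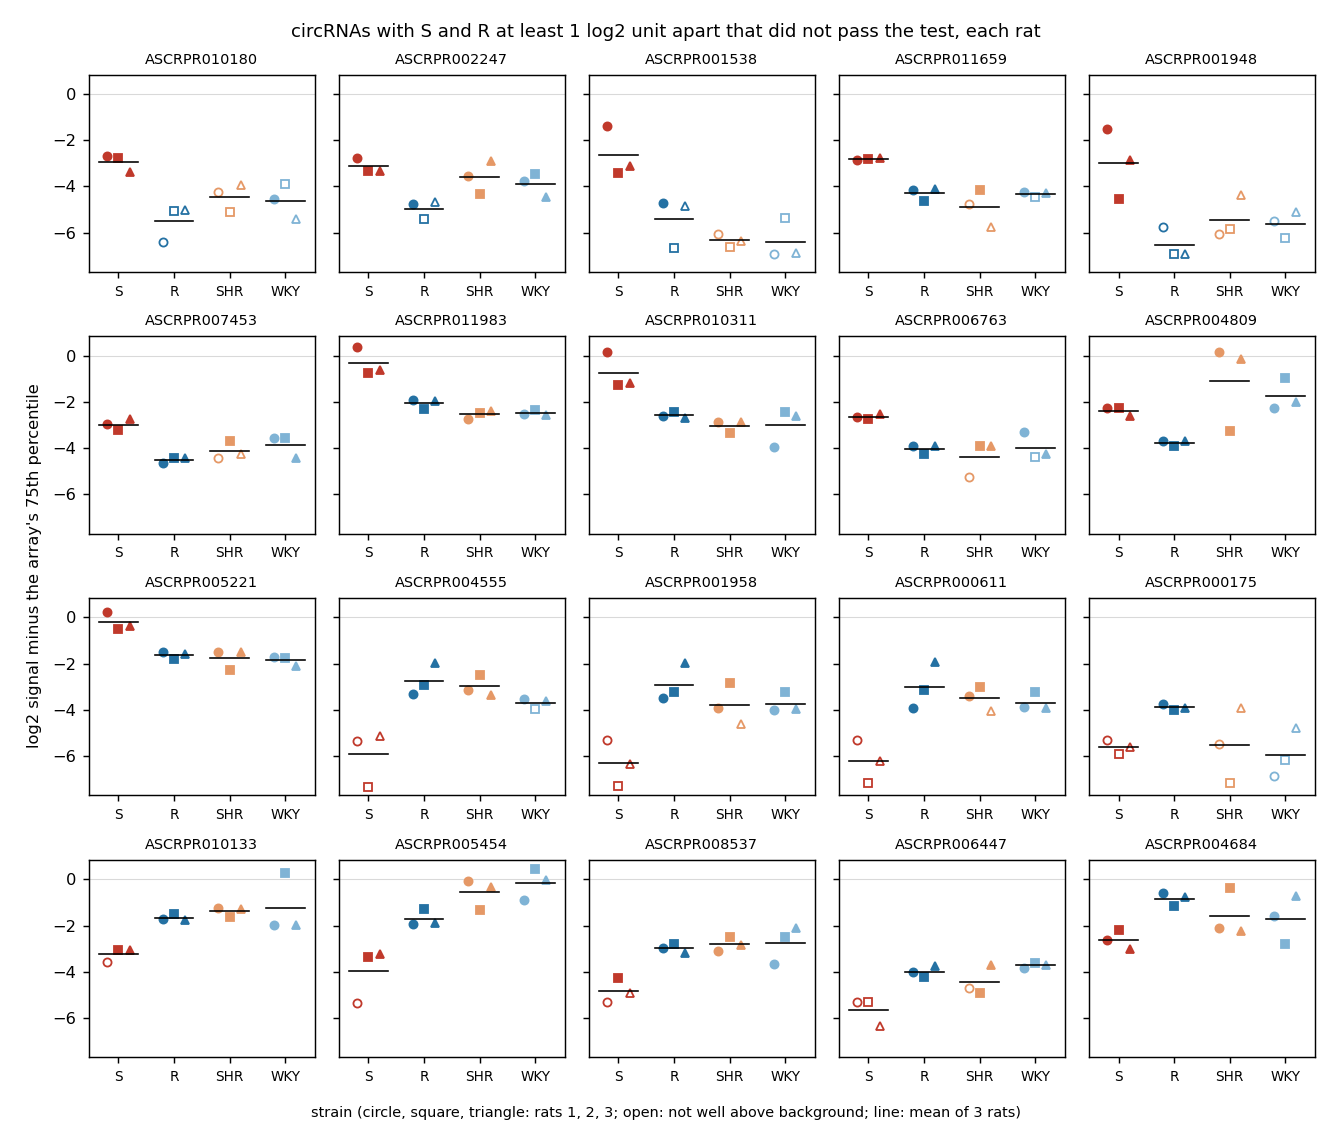
The 20 circRNAs with a gap of at least 1 log2 unit between S and R that did not pass have a panel each, with 1 point per rat at its level (log2 intensity minus the array's 75th percentile, vertical axis), grouped by strain, a line at each strain mean and open points where the spot was not well above background. The 11 that were higher in S and the 9 that were lower show no overlap between S and R, and the spread within S or R is wide for several.

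By the detection flag, a few circRNAs were well above background in only 1 Dahl strain. Of the 14145 circRNA probes, 34 were so on all 3 R arrays and no S array. Another 3 were so on all 3 S arrays and no R array. The 34 do not show that the RNA was missing in S, since for 27 of them the R mean lay below what S rat 1 could show. Their S and R values did not overlap in 19, and 5 passed the test, against 14.0% and 0.107% of all circRNAs tested. Choosing them by detection in R alone favours both counts, so nothing is read from them. All SHR and all WKY arrays detected 7 of the 34, and none did for 3. Without S rat 2, the brightest S array, the number in both directions was 493, of which 490 were in R.

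The remaining circRNA detected in S and not in R was ASCRPR001507, at -2.88, -4.66 and -3.67 in S and at least 2.21-fold higher than in R (limma adjusted p = 0.28). No SHR or WKY array detected it. ASCRPR001143 was -3.21, -2.81 and -4.47 in R and at least 1.5-fold lower in S (0.0708), and it was well above background on every SHR and WKY array. ASCRPR002356 was -4.20, -3.99 and -3.60 in R and at least 1.11-fold lower in S (0.12), and ASCRPR004552 was -4.18, -3.99 and -4.0 and at least 1.02-fold lower (0.343). With normexp the direction turned for both, to 0.33 and 0.46, and for ASCRPR004552 also in the deposited values, to 0.11. Some spots brighter than a detection limit were not counted as well above background. An example is ASCRPR005571 in S rat 2, at -4.91 against a limit of -5.06. Bounds as near 1 as those of ASCRPR002356 and ASCRPR004552 therefore do not establish a difference. ASCRPR013215, at least 1.40-fold lower in S but 0.10 with normexp, overlapped between the strains because S rat 1 was at -3.77. ASCRPR008790 and ASCRPR012797 had no bound above 1, overlapped as well and turned to 0.27 and 0.29 with normexp.

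Counting every circRNA whose S and R values did not overlap gave 1702 (14.0%), with 974 higher in S (8.0%) and 728 lower (5.98%). With 3 rats against 3, random strain labels leave a share of 0.1 without overlap. The 14.0% is to be read beside that share, and lack of overlap alone does not mark a strain difference. Most were narrow separations. The gap between the nearest S and R rats was under 0.25 log2 units for 1236, from 0.25 to 0.5 for 316, from 0.5 to 1 for 117 and at least 1 for 33. The median size of the difference was 0.65, against 0.40 over all circRNAs tested. Choosing circRNAs without overlap favours larger differences, so nothing is read from this contrast. The difference was at least 1 in size for 431 and at least 2 for 44. Without S rat 2 the count was 7703 and without R rat 3 it was 3653.

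The share without overlap was similar across levels, from 12.5% to 16.6% in 10 equal bins of the circRNAs ordered by mean level. Wide gaps were not: 17 of the 33 lay in the dimmest bin and none in the brightest 4 bins, and none of the 13 that passed lay in those 4 bins either. Of the 100 brightest circRNAs 1 did not overlap, ASCRPR006761. It was 7.36, 6.24 and 6.79 in S and 5.64, 5.52 and 6.18 in R, so S rat 2 was just above R rat 3 (difference 1.02, limma adjusted p = 0.383). It was lower in SHR, at 3.63 ± 1.48, and in WKY, at 3.40 ± 0.58 (SD, n = 3 each).

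SHR and WKY were both nearer to R for 684 of the 974 circRNAs without overlap that were higher in S (70.2%) and for 429 of the 728 that were lower (58.9%). Over all tested circRNAs the shares were 62.7% where the S mean was higher and 63.5% where it was lower, so these shares are close to the background.

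Over all 12 arrays and among the 1702 circRNAs without overlap, the pattern most like that of ASCRPR007857 was that of ASCRPR013998 (Pearson r = 0.956), followed by ASCRPR003970 (0.933), ASCRPR008107 (0.930) and ASCRPR012875 (0.920). For ASCRPR001672 the most alike were ASCRPR007116 (0.994), ASCRPR000611 (0.976), ASCRPR001958 (0.970) and ASCRPR009671 (0.964). All 5 of these have S values at the detection floor, where the level follows the array. The arrays also share slides, so these correlations are descriptions.

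A small set of probes for linear mRNAs remained on the array, of which 35 matched to a gene could be tested. They read linear RNA left after digestion with RNase R, not the mRNA levels of the kidney. Whether the digestion was equal between rats was not tested. None passed between S and R (0.0%) by limma with adjustment over the 35, and 2 had an unadjusted p under 0.05 (5.71%). Chosen after its values were seen, Ptk2b, a calcium-responsive tyrosine kinase, was 1.80, 0.42 and 0.97 in S and -1.41, -0.81 and 0.16 in R (difference 1.75, adjusted p = 0.389). Pdk3, a kinase that inhibits pyruvate dehydrogenase, was -2.55, -1.30 and -1.93 in S and -0.92, -0.63 and -0.79 in R (difference -1.15, adjusted p = 0.389). S rats did not overlap R rats for either gene. The same held for Ndfip2, Cyp2e1 and an Ldha probe, so it does not set Ptk2b and Pdk3 apart. With 3 rats against 3, random strain labels leave a share of 0.1 without overlap. Without S rat 2, Napepld, an enzyme of N-acylethanolamine synthesis, passed. It was -4.87, -1.72 and -4.12 in S and -1.96, -1.67 and -3.02 in R. Most of its spots were well above background on only 2 of the 3 S arrays. Without S rat 2 its S mean rests on dim readings. The median mRNA level per array lay from -2.19 to -1.93 in S and from -2.11 to -1.94 in R. These ranges overlap. Of 24 listed markers of other cell types 4 had a tested probe (Nlrp3, Dlg4, Ptk2b and Trim2), so the cell makeup of the samples was not tested.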

How the data were processed

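Kidney RNA was extracted with TRIzol, digested with RNase R and labelled with Cy3 by random priming, per the labels' protocols. Per the file headers, Agilent Feature Extraction 11.0.1.1 gave each spot a background-subtracted signal intensity, 1 colour and 1 spot per circRNA probe. The submitters' processing notes also name limma. The authors also deposited log2 values for 12846 circRNA probes, with column medians between 6.70 and 6.75. Every column ranked the probes like the array it belongs to (Spearman's rho, 0.995 or more), but how these values were centred and filtered is unknown, and they served as an alternative only.

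Intensities were taken to log2 and each array's 75th percentile over circRNA probes was subtracted. Outlier flags removed 40 spots, and saturation affected none. limma 3.58.1 in R 4.3.3 (lmFit, eBayes) fitted a mean per strain to all 12 arrays, with Benjamini-Hochberg adjustment and a threshold of 0.05. The script was tested on simulated data. Where a probe was detected on no array of a strain, its fold is a lower bound: each array of that strain was given the probe's level or, if higher, its detection limit, and their mean was compared with the other strain. The same was done where 1 of 3 arrays detected it. The limit is the dimmest signal counted as well above background on that array. It is not strict, since some brighter spots were not so counted. Named circRNAs were all that passed, up to 20 per direction with a gap of at least 1, up to 6 per direction detected in 1 Dahl strain, up to 5 per direction of the brightest 100, and the 4 most alike to the largest difference per direction. mRNA probes were named through RefSeq accessions, and 39 matched a gene. Members and lists were chosen with earlier results of these data known. Replicate numbers were not used to pair S and R rats in the main fit. Alternatives were other background corrections, normalizations, filters, blocks, variance settings and leaving out each rat. Tests by host gene or position were not run. The number of arrays limits the precision.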

Additional observations from a re-analysis of the deposited data

Results flagged for a closer look

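For 5 circRNAs the S minus R difference was not the same as the SHR minus WKY difference, by a test of the difference between the differences (limma, adjusted over 12168 circRNAs, of which 11 passed, 0.0904%). These 5 are among the 13 chosen by their S minus R difference. The test contains that same difference, so the choice favours their passing. All S and R arrays and WKY rats 1 and 2 were on slide 1, and WKY rat 3 and the SHR rats on slide 2. ASCRPR000194 was high in R and SHR and low in S and WKY, with a fitted -5.92 (adjusted p = 0.000129), which passed in 20 of 22 alternatives. Its size cannot be read, because 1 of 3 arrays was well above background in S and in WKY. For ASCRPR005699 the values were 2.53 and -0.04, a difference of 2.56 (adjusted p = 0.00824), which passed in 20 of 23. ASCRPR007857 gave a fitted 5.33 (adjusted p = 0.00254; 18 of 22), which has no interpretable size because no SHR array was well above background. ASCRPR010128 gave a fitted -3.67 (adjusted p = 0.0109; 14 of 22), likewise without a size because no S array was. ASCRPR012875 gave 2.19 (adjusted p = 0.025; 10 of 23), with -0.61 for SHR minus WKY. With the slide as a block, 2 circRNAs passed this test.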

How the results depend on the processing

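The count of 13 circRNAs between S and R was 3 with normexp, 20 with quantile normalization (10 higher and 10 lower), 5 (all higher in S) with a filter on all 6 S and R arrays, 5 with the arrays of slide 1 alone, 2 with only the S and R arrays, 20 with an intensity trend and robust variance, 6209 with array weights, 2 with an unmoderated test and 1730 when an unadjusted p under 0.05 was combined with a minimum fold of 1.5. It was 0 with the slide row as a block or with the first row alone, both chosen after seeing the data. The count with array weights was 51.0% of those tested. That fit gave S rats 1 and 2 weights of 0.29 and 0.15, and S rat 3 and R rat 2 weights of 2.71 and 4.42. It therefore leaned on few rats. Leaving out each rat gave 5 to 3593. Same-numbered S and R rats deviated together with r = -0.379, 0.253 and 0.520, and not every rat correlated best with its own number. These are correlations of deviations from means of 3 rats. They cannot settle whether same-numbered rats shared a processing step, which was not tested. The replicate block gave 7 calls, and 4 for the difference between the Dahl and the SHR and WKY differences.

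That last comparison, with 11 calls, gave 2 with normexp, 4 with the filter on 6 arrays, 3 in the deposited table, 2 with the slide as a block, 3619 with array weights and 5 to 340 without 1 rat. S against the mean of SHR and WKY gave 2386 with normexp, 69 with the slide as a block and 1490 to 6595 without 1 rat, and R against that mean 279, 0 and 22 to 2810. The count of 2810 was the one without SHR rat 2. Leaving out each rat gave 2056 to 7703 circRNAs without overlap, 37 to 493 detected in 1 Dahl strain only, 0 to 1 mRNA probes, and differences in the share well above background of -11.6 to -1.77 percentage points.

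The sign turned with normexp for ASCRPR000175 (0.21), ASCRPR008537 (0.13), ASCRPR006447 (0.29), ASCRPR013215 (0.10), ASCRPR002356 (0.33), ASCRPR004552 (0.46), ASCRPR008790 (0.27) and ASCRPR012797 (0.29), and in the deposited table for ASCRPR004552 (0.11). All are dim in S. With normexp, which used an offset of 50, the median difference over all 12168 circRNAs was 0.21, against 0.03 in the main fit. The sign changes are to be read beside that shift. The cause of these changes was not tested. Signal over background limits the dim circRNAs: S rat 1 shows no level below -3.09 as well above background.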
